A study of Mus musculus with 6 samples.

Results

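The comparison concerned pancreatic islets that lack Trsp, the gene of the transfer RNA that carries selenocysteine, deleted by either of 2 Cre drivers. Its members were 4 of the 6 microarrays of the series, chosen by sample title: 2 arrays of Trsp-Ins1KO islets, whose mice were TrspFlox/Flox with Ins1-Cre, and 2 arrays of Trsp-RIPKO islets, whose mice were TrspFlox/Flox with RIP-Cre. The other 2 arrays, TrspFF, came from TrspFlox/Flox mice with no Cre named. The 3 groups thus share the floxed Trsp alleles, and per the labels all mice were males of the ICR background, aged 16 weeks. RIP-Cre is driven by a rat insulin promoter and Ins1-Cre by sequence of the mouse Ins1 gene. No Cre-only group was given, so a difference between the knockout groups cannot be told apart from a difference between the Cre drivers themselves.

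Selenocysteine is inserted at UGA codons by this transfer RNA together with a dedicated elongation factor and RNA-binding proteins, so its loss stops the synthesis of all selenoproteins, among them glutathione peroxidases and thioredoxin reductases. Messages whose UGA codon is no longer read can be degraded, and the loss of these peroxidases and reductases is known to engage the NRF2 programme of glutathione and thioredoxin genes. Both promoters are used to delete genes in beta cells. Some RIP-Cre lines also recombine in hypothalamic neurons and carry a human growth hormone minigene, which in islets can signal through the prolactin receptor and STAT5; the labels do not say which RIP-Cre or Ins1-Cre line was used.

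Levels below are log2 processed signals minus the 75th percentile of the same array, and differences are Trsp-Ins1KO minus Trsp-RIPKO on that log2 scale, each from n = 2 arrays per group with the standard error of a limma fit over all 6 arrays. A gene is said to rise, fall or be called where its adjusted p was under 0.05. The labels do not say whether replicate arrays stand for different mice or how many mice were pooled, so p-values rest on a spread between arrays that may be technical. In whole islets, fewer cells of a type and less RNA per cell cannot be told apart.

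The Trsp-RIPKO arrays were alone on 1 slide, and the other 4 arrays shared another, so slide and group cannot be told apart. The scanner software marked the quality of both Trsp-RIPKO arrays as "evaluate" and that of the other 4 as in range. The Trsp-Ins1KO arrays were the dimmest, with a 75th percentile of 122 and 111 intensity units against 203 to 215 for Trsp-RIPKO and 218 to 247 for TrspFF, and with 51.9% to 52.7% of spots well above background against 58.0% to 61.5% on the other 4 arrays. Their 7 spike-in probes lay 3.79 and 3.86 above the 75th percentile, against 2.36 to 2.72 on the others. Groups follow the scanner files. In the authors' value table the columns named TrspFF hold the values of the Trsp-Ins1KO scanner files and the reverse, and if that table were right the arrays called Trsp-Ins1KO here would be floxed controls. No probe is named for Trsp, so the deletion itself was not measured. Xist, an RNA of female cells, was well above background on the Trsp-RIPKO and TrspFF arrays, although all mice were labelled male; its values and those of Y-linked genes close the results. The islet hormones Ins1, Ins2, Iapp, Gcg, Sst and Ppy were all well above background on the 6 arrays.

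Of 18626 genes tested, 7431 (39.9%) were called, 3684 (19.8%) higher and 3747 (20.1%) lower with Ins1-Cre, around a median difference of -0.0075. With no fit, 13461 genes (72.3%) had arrays that did not overlap between the knockout groups. These shares are the background for the counts of list members below, except for members too dim to measure on both arrays of 1 knockout group. Such genes entered through the other group, which largely set their direction. All 55 genes dim on both RIP-Cre arrays were called higher. Of 1544 dim on both Ins1-Cre arrays, 836 were called lower and 2 higher. Over the 16188 genes measured on all 4 knockout arrays, 22% rose and 17.1% fell. The split between directions over all genes rested on the scaling. Scaled to the median instead, 8085 genes were called, 5720 higher and 2365 lower, because the median difference then moved up by 0.167, and a normexp background gave 11643 calls, 7881 higher and 3762 lower. Without Trsp-RIPKO replicate 1 the calls fell to 3902, and without Trsp-RIPKO replicate 2 to 4295. Among 809 tested genes of 42 lists, 419 were called, 243 higher and 176 lower. A gene can be in more than 1 list, so the counts of different lists are not independent.

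**Figure D1:**
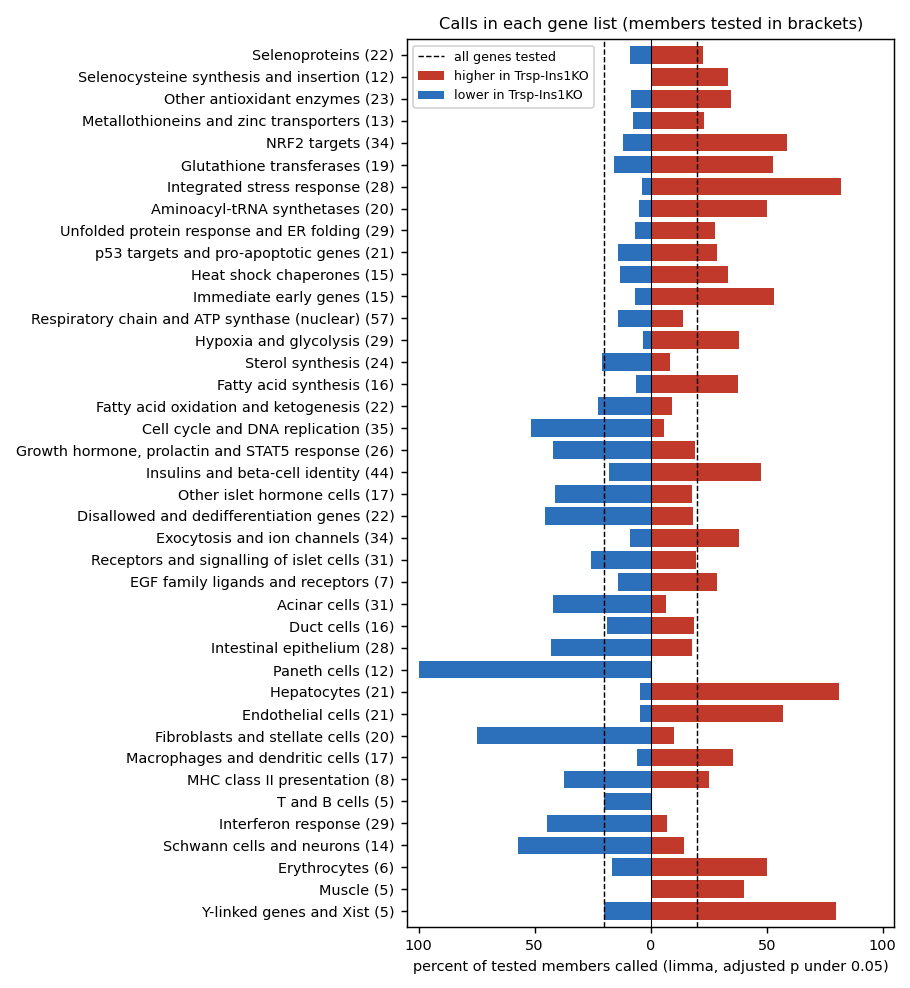
Percent of the tested members of each gene list that were called higher (red, right) or lower (blue, left) in Trsp-Ins1KO than in Trsp-RIPKO islets, with the number tested in brackets and dashed lines at the shares over all genes tested, 19.8% and 20.1%. The integrated stress response, NRF2, hepatocyte and endothelial lists reach far to the right, and the Paneth, fibroblast, neuronal and cell cycle lists far to the left.

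The selenoprotein messages split by gene rather than shifting together. Of 22 tested, 5 rose and 2 fell with Ins1-Cre (31.8% called, below the 39.9% of all genes), with a median difference of -0.012. Gpx2, the gastrointestinal glutathione peroxidase, had levels of 3.51 and 3.50 with Ins1-Cre, 2.37 and 2.41 with RIP-Cre and 1.53 and 1.46 without Cre. Its groups did not overlap and rose in steps from no Cre to RIP-Cre to Ins1-Cre, and between the knockouts it differed by 1.12 ± 0.066 (SE, adjusted p = 0.00086), 2.17-fold. Txnrd1, the cytosolic thioredoxin reductase, stood at 3.16 and 3.11 with Ins1-Cre, 2.53 and 2.44 with RIP-Cre and 2.43 and 2.60 without Cre, a difference of 0.65 ± 0.087 (SE, adjusted p = 0.0051) in which RIP-Cre overlapped the floxed arrays. Dio1, a deiodinase of thyroid hormone, also rose, by 0.61 ± 0.079, as did Selenoo, by 0.41 ± 0.084, and the mitochondrial reductase Txnrd2, by 0.22 ± 0.066. Selenop, the secreted selenium carrier, read 4.99 and 4.92 with Ins1-Cre, 5.61 and 5.52 with RIP-Cre and 5.89 and 5.91 without Cre. All of its Ins1-Cre arrays lay below all RIP-Cre arrays, and it fell by 0.61 ± 0.071 (SE, adjusted p = 0.0037). Selenoo was not called without Trsp-Ins1KO replicate 1 or Trsp-RIPKO replicate 1 or 2 (adjusted p 0.051 to 0.079). Txnrd2 was not called with any 1 array left out (adjusted p 0.066 to 0.16).

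Gpx1, the abundant cytosolic peroxidase, gave 2.48 and 2.34 with Ins1-Cre, 2.95 and 2.70 with RIP-Cre and 3.59 and 3.54 without Cre. It was lowest with Ins1-Cre, and the difference between the knockouts was -0.41 ± 0.11 (SE, adjusted p = 0.033). Gpx4, the peroxidase of membrane lipids, gave 3.52 and 3.39 with Ins1-Cre, 3.57 and 3.53 with RIP-Cre and 4.38 and 4.30 without Cre. Its knockout arrays lay together below the floxed ones, and the difference of -0.093 (95% interval -0.29 to 0.11) was not called. The same held for Selenoh, a nuclear selenoprotein, at 0.34 and 0.29 with Ins1-Cre, 0.48 and 0.36 with RIP-Cre and 1.23 and 1.26 without Cre and a difference of -0.10 (95% interval -0.29 to 0.087). Selenow, a small muscle-rich selenoprotein, differed by 0.19 (95% interval -0.020 to 0.41) and was not called. Median scaling turned the sign of the small Gpx4 and Selenoh differences, to 0.074 and 0.065. Without Trsp-RIPKO replicate 1, or without Trsp-Ins1KO replicate 1, 3 selenoproteins rose and 1 fell, and normexp gave 5 and 7. Gpx1 was not called with any 1 array left out but Trsp-RIPKO replicate 2 (adjusted p 0.053 to 0.13).

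**Figure D2:**
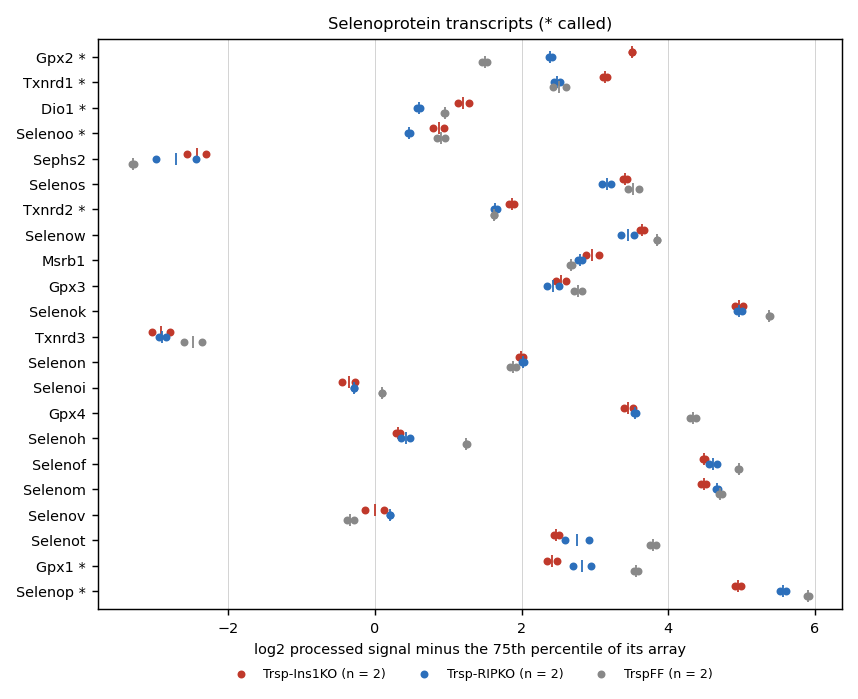
Level of each tested selenoprotein message on the 6 arrays, as log2 processed signal minus the 75th percentile of the array (horizontal axis), with dots for arrays, ticks for group means and an asterisk for genes called between the knockouts. Gpx2 and Txnrd1 are highest with Ins1-Cre, Selenop and Gpx1 lowest, and the knockout arrays of Gpx4, Selenoh and Selenot lie together below the floxed arrays.

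Of 12 genes that make and insert selenocysteine 4 rose and none fell in the limma fit, a 33.3% share under the 39.9% of all genes. Among the lower members 3 had an unadjusted p under 0.05, and normexp gave 6 higher and 4 lower. Scly, the lyase that recycles selenocysteine, read 3.52 and 3.35 with Ins1-Cre, 2.58 and 2.59 with RIP-Cre and 2.75 and 2.69 without Cre, so the Ins1-Cre arrays lay above the 4 others, and the difference was 0.85 ± 0.084 (SE, adjusted p = 0.0025). Eefsec, the elongation factor that brings selenocysteine to the ribosome, rose by 0.64 ± 0.082. Sars, which charges the transfer RNA with serine, rose by 0.55 ± 0.067, and Pstk, the kinase that acts on that serine, by 0.43 ± 0.086. The remaining 8, among them Secisbp2, which binds the selenocysteine insertion element, and Sepsecs, the selenocysteine synthase, were not called, at 0.25 (95% interval 0.0057 to 0.49) and -0.39 (95% interval -0.74 to -0.043). Another Secisbp2 probe differed by -0.28. Pstk was not called without Trsp-RIPKO replicate 1 or 2 (adjusted p 0.061 to 0.085).

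The integrated stress response was the islet programme with the highest share of calls among the stress lists. This pathway lowers general translation through eIF2 phosphorylation while the factor ATF4 raises genes of amino acid supply and of stress signalling. Over all genes 19.8% rose and 20.1% fell, with a median of -0.0075, and over genes with a symbol 23.5% and 17%, with a median of 0.042. In this list 23 of 28 tested genes rose with Ins1-Cre and 1 fell, with a median difference of 0.72. All 24 kept their direction in every alternative but the renamed columns of the authors' table, and 16 kept the call in all of these.

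Slc7a3, a transporter of cationic amino acids, had levels of 0.57 and 0.54 with Ins1-Cre, -1.75 and -1.37 with RIP-Cre and -3.01 and -2.93 without Cre. The 3 groups were wholly apart, with Ins1-Cre on top, and the difference was 2.11 ± 0.14 (SE, adjusted p = 0.00099), 4.32-fold. Nupr1, a stress-induced chromatin protein, read 5.47 and 5.46 with Ins1-Cre, 4.08 and 3.84 with RIP-Cre and 3.53 and 3.47 without Cre, a difference of 1.50 ± 0.10 (SE, adjusted p = 0.001). Trib3, a pseudokinase that curbs AKT and ATF4, read 3.28 and 3.16 with Ins1-Cre, 1.94 and 1.78 with RIP-Cre and 0.97 and 1.07 without Cre, a difference of 1.36 ± 0.094 (SE, adjusted p = 0.0011). Both showed the same order, floxed below RIP-Cre below Ins1-Cre, with no overlap. The circulating stress hormone Gdf15 stood at -1.87 and -2.01 with Ins1-Cre, -3.38 and -3.26 with RIP-Cre and -4.00 and -4.03 without Cre and differed by 1.38 ± 0.084 (SE, adjusted p = 0.00088). Fgf21, another stress hormone, was well above background only with Ins1-Cre, at -3.15 and -3.01 with Ins1-Cre and -4.73 and -4.67 with RIP-Cre. It was at least 2.23-fold higher with Ins1-Cre, at a limma difference of 1.625 (adjusted p = 0.00069). The bound sets the group against the lowest signal that counts as well above background on the RIP-Cre arrays. Here and below, an adjusted p beside a bound belongs to the limma difference and not to the bound.

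Of the factors, Atf5 rose by 1.10 ± 0.064 and Cebpb by 1.10 ± 0.080. Chac1, which degrades glutathione, rose by 1.14 ± 0.10, Slc3a2, the heavy chain of the cystine and leucine transporters, by 0.95 ± 0.089, and its light chain Slc7a5 by 0.87 ± 0.085, where another Slc7a5 probe differed by only 0.038. The serine synthesis enzymes Phgdh and Psat1 rose by 0.74 ± 0.081 and 0.57 ± 0.11, and Sesn2, a sensor of leucine, by 0.70 ± 0.064. Atf4 itself read 7.30 and 7.31 with Ins1-Cre, 6.65 and 6.70 with RIP-Cre and 6.65 and 6.74 without Cre. Only the Ins1-Cre arrays stood apart, by 0.63 ± 0.069 (SE, adjusted p = 0.0033), a difference that shrank to 0.0021 and lost its call under normexp. Asns, asparagine synthetase, differed less, at 0.36 ± 0.063. Slc38a2, an alanine and glutamine transporter, was the member that fell, at 0.42 and 0.45 with Ins1-Cre, 1.45 and 1.26 with RIP-Cre and 1.41 and 1.37 without Cre and a difference of -0.92 ± 0.087 (SE, adjusted p = 0.0024). Ddit3, which encodes CHOP, at 0.29 (95% interval -0.010 to 0.59), was not called. Asns was not called without Trsp-RIPKO replicate 1 (adjusted p = 0.06). Psat1 was not called without Trsp-RIPKO replicate 1 or 2 (adjusted p 0.063 to 0.066).

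The promoters of these genes were searched for the C/EBP-ATF response element, through which ATF4 and C/EBP factors act, spelled TGATGNAAN, or NTTNCATCA on the other strand. It occurred in 6 of 26 stress response genes with an entry (23.1%), against 307 of 10484 tested genes (2.93%) and 1299 of all 32851 promoters of 300 bases in the table (3.95%). The 6 were Trib3, Chac1, Asns, Nupr1, Vldlr and Fgf21, all called higher with Ins1-Cre, as were 21 of the 26 genes with an entry. The list was chosen as genes of this pathway, so its share of matches is not a test of the pathway. A match is a description of these letters, and binding was not measured. Vldlr was not called without Trsp-RIPKO replicate 1 (adjusted p = 0.0655). Shown are the 250 bases before the gene start for the 4 of them whose match lies before their only listed start, from RefSeq's GRCm38.p6, with the match in capitals. Their places are chr6:7693210-7693459 on the minus strand for Asns, chr7:126625471-126625720 on the minus strand for Nupr1, chr7:45615491-45615740 on the minus strand for Fgf21 and chr2:119350992-119351241 on the plus strand for Chac1.
Asns: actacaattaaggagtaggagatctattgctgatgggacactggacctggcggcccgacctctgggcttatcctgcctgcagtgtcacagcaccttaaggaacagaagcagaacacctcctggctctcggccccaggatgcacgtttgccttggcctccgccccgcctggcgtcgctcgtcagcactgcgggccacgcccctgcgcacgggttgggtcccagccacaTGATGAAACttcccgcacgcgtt
Nupr1: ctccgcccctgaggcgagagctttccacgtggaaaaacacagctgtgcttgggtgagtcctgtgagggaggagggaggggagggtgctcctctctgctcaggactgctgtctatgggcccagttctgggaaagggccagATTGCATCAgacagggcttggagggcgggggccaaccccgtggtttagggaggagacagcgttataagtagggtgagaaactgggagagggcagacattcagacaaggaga
Fgf21: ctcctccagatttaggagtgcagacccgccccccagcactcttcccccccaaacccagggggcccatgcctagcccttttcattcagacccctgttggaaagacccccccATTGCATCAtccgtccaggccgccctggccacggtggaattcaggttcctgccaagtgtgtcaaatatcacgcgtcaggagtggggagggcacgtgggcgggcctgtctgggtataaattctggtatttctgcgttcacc
Chac1: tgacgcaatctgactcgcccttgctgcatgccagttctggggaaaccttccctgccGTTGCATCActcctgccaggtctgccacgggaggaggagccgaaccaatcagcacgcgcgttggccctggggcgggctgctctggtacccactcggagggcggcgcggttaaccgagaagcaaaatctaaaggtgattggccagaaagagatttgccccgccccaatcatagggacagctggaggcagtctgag
The match begins 23 bases before the start in Asns, 111 in Nupr1, 140 in Fgf21 and 194 in Chac1, on the strand of the gene in Asns and on the opposite strand in the others.

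**Figure D3:**
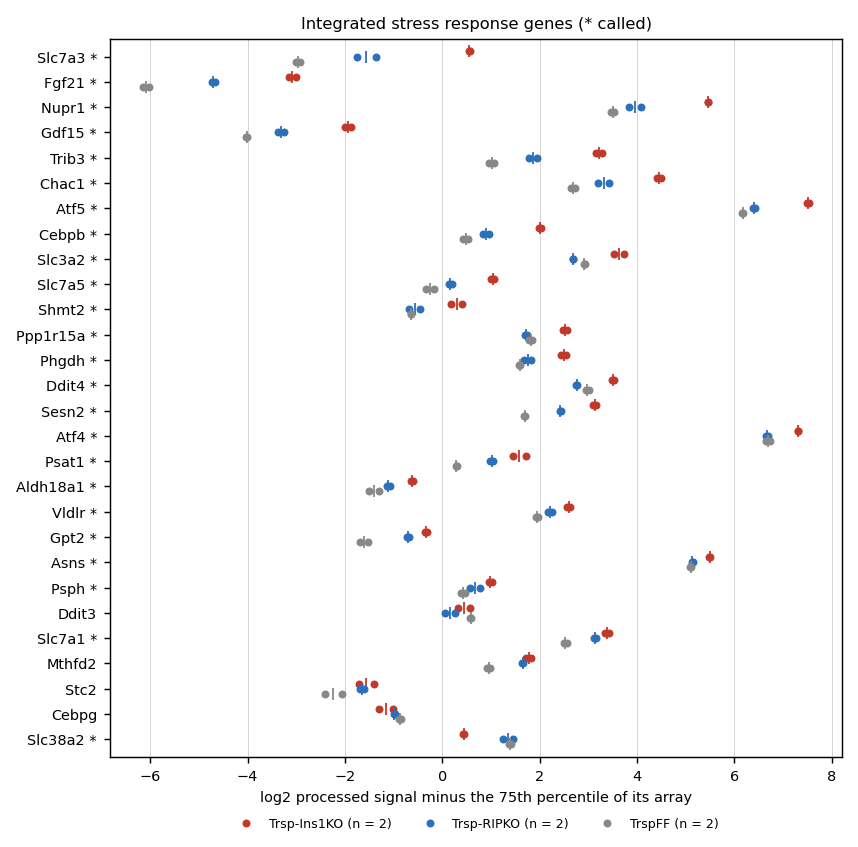
Level of each tested integrated stress response gene on the 6 arrays, as log2 processed signal minus the 75th percentile of the array, ordered by the difference between the knockouts, with asterisks for called genes. In 23 of the 28 genes the Ins1-Cre arrays were called above the RIP-Cre arrays, and Slc38a2 is the one called gene below.

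Among 20 aminoacyl-tRNA synthetases, which load amino acids onto transfer RNAs and include ATF4 targets, 10 rose and 1 fell. Vars rose by 1.00 ± 0.10 and Aars by 0.77 ± 0.090, and Eprs, the fused glutamyl and prolyl enzyme, was the member that fell, from levels of 0.085 and -0.10 with Ins1-Cre and 0.82 and 0.75 with RIP-Cre, a difference of -0.79 ± 0.086 (SE, adjusted p = 0.0032). Only 4 of them rose without Trsp-RIPKO replicate 1, 5 without replicate 2 of that group, and 6 without either TrspFF array or without Trsp-Ins1KO replicate 1. The unfolded protein response, by contrast, had 8 higher and 2 lower of 29 genes with a median of 0.063, 34.5% called against 39.9% of all genes. Its rises included Syvn1, the ubiquitin ligase of endoplasmic reticulum clearance, at 0.74 ± 0.079, and the sensor Ern1, at 0.53 ± 0.10. The main chaperone of the reticulum, Hspa5, read 7.34 and 7.24 with Ins1-Cre, 7.25 and 7.24 with RIP-Cre and 7.22 and 7.25 without Cre and was not called, at 0.044 (95% interval -0.14 to 0.22). That list's counts were unstable, with 2 higher and 2 lower without Trsp-RIPKO replicate 1, 4 and 1 without replicate 2 of that group, 4 and 0 without Trsp-Ins1KO replicate 1, 5 and 0 without either TrspFF array and 7 and 10 under normexp.

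NRF2 is the factor that raises glutathione, thioredoxin and detoxification enzymes on oxidative stress, and 20 of its 34 tested targets rose with Ins1-Cre while 4 fell, with a median difference of 0.35. Gstm1, a glutathione transferase, had levels of 2.94 and 2.91 with Ins1-Cre, 1.51 and 1.48 with RIP-Cre and 1.08 and 1.04 without Cre. Each group was apart from the others, Ins1-Cre the highest, and the difference was 1.43 ± 0.064 (SE, adjusted p = 0.00047), 2.7-fold. Its relatives Gstm2, Gstm3 and Gstp1 rose by 0.94 ± 0.077, 0.79 ± 0.12 and 0.74 ± 0.10, in the same order of the 3 groups, although probes of this family can bind the messages of near-identical copies. Hmox1, heme oxygenase, read 1.33 and 1.15 with Ins1-Cre, 0.35 and 0.43 with RIP-Cre and -1.20 and -1.39 without Cre and rose by 0.85 ± 0.11 on its brightest probe, while another Hmox1 probe differed by 0.047. Gstm3 was not called without Trsp-RIPKO replicate 1 (adjusted p = 0.056).

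Nqo1, a quinone reductase, rose between the knockouts, by 0.57 ± 0.13 (SE, adjusted p = 0.022), but from a lower level than in floxed islets, at -2.16 and -2.27 with Ins1-Cre, -2.63 and -2.94 with RIP-Cre and -1.86 and -1.99 without Cre. Gclm, the modifier subunit of glutathione synthesis, rose by 0.43 ± 0.093, whereas the catalytic subunit Gclc, at 0.16 (95% interval -0.0045 to 0.32), and the sulfiredoxin Srxn1, at 0.054 (95% interval -0.12 to 0.23), were not called. Akr1b8, an aldo-keto reductase, went the other way, at -1.84 and -1.72 with Ins1-Cre, -0.49 and -0.65 with RIP-Cre and -1.33 and -1.47 without Cre and a difference of -1.21 ± 0.10 (SE, adjusted p = 0.0017). Over 19 glutathione transferases 10 rose and 3 fell. Some of them, Gstm1 included, are also in the NRF2 list, so the 2 counts are not separate. Over the 17 measured on all 4 knockout arrays 10 rose and 1 fell, and 2 were well above background on no Ins1-Cre array. Gstm7, a further relative of Gstm1, differed by -1.93 (95% interval -2.27 to -1.59). Mgst2 differed by -1.89 (95% interval -3.1 to -0.72). Without Trsp-RIPKO replicate 1 the NRF2 list had 13 higher and 2 lower, and the transferases 6 and 1; without replicate 2 of that group they had 12 and 2, and 7 and 1. Gclm was not called without Trsp-Ins1KO replicate 1 or 2 or Trsp-RIPKO replicate 1 or 2 (adjusted p 0.055 to 0.1). Nqo1 was not called without Trsp-Ins1KO replicate 1 or Trsp-RIPKO replicate 2 (adjusted p 0.069 to 0.078).

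Antioxidant enzymes that hold no selenocysteine were called at 8 higher and 2 lower of 23, 43.5% against 39.9% of all genes. Catalase, Cat, which removes hydrogen peroxide, read 5.03 and 5.30 with Ins1-Cre, 4.70 and 4.57 with RIP-Cre and 3.81 and 3.75 without Cre and rose by 0.53 ± 0.11 (SE, adjusted p = 0.018). Gsr, glutathione reductase, rose by 0.55 ± 0.070, the mitochondrial dismutase Sod2 by 0.37 ± 0.078, and Glrx5, a glutaredoxin of iron-sulfur assembly, by 0.57 ± 0.11. Txn1, the cytosolic thioredoxin that Txnrd1 reduces, fell instead, at 2.66 and 2.60 with Ins1-Cre and 3.27 and 3.11 with RIP-Cre and -0.56 ± 0.081 (SE, adjusted p = 0.0064), and so did Prdx4, a peroxiredoxin of the reticulum, at -0.34 ± 0.070. These calls were fragile, at 2 higher and 1 lower without Trsp-RIPKO replicate 1 and 2 and 2 without replicate 2. The metal-binding protein Mt2 read 4.83 and 4.79 with Ins1-Cre, 4.49 and 4.48 with RIP-Cre and 6.19 and 6.20 without Cre, higher with Ins1-Cre than with RIP-Cre by 0.33 ± 0.063 but below the floxed arrays in both, and Mt1, at -0.23 (95% interval -0.45 to -0.018), was not called. Cat, Glrx5 and Mt2 were not called without Trsp-RIPKO replicate 1 or 2 (adjusted p 0.052 to 0.09). Prdx4 was not called without Trsp-RIPKO replicate 1 (adjusted p = 0.084). Sod2 was not called without Trsp-Ins1KO replicate 1 or Trsp-RIPKO replicate 1 or 2 (adjusted p 0.052 to 0.084).

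Immediate early genes, which respond within minutes to calcium, growth factors or handling of the tissue, were higher with Ins1-Cre in 8 of 15 and lower in 1, with a median difference of 0.73. Fos read -0.15 and -0.30 with Ins1-Cre, -2.24 and -2.30 with RIP-Cre and -1.73 and -1.74 without Cre, so that RIP-Cre lay lowest, and the difference was 2.05 ± 0.079 (SE, adjusted p = 0.00034), 4.14-fold. Nr4a1 rose by 1.40 ± 0.13, Egr1 by 1.13 ± 0.094, Jund by 1.10 ± 0.074, Ier3 by 1.00 ± 0.14 and the phosphatase Dusp1 by 0.89 ± 0.071. In Nr4a1, Egr1 and Dusp1 the floxed arrays lay with or below the RIP-Cre arrays; for Egr1 they read -1.14 and -1.25. The inducible chaperone Hspa1a read -0.42 and -0.64 with Ins1-Cre, -1.96 and -1.98 with RIP-Cre and -0.76 and -0.84 without Cre, lowest with RIP-Cre, a difference of 1.44 ± 0.10 (SE, adjusted p = 0.0011), while 5 of 15 heat shock chaperones rose in all and 2 fell. Cryab, a small chaperone, was among those that fell, at -0.78 ± 0.12, but on the mean over its probes it was not called (-0.72, limma adjusted p = 0.18). The chaperone calls were fewer with 1 array left out, other than Trsp-Ins1KO replicate 2. Among 21 targets of p53 and death genes 6 rose and 3 fell. That was 42.9% called, and 46.7% for the heat shock chaperones, against 39.9% of all genes. Plk2 rose by 1.24 ± 0.14, Bbc3, which encodes PUMA, by 0.93 ± 0.071, and the cyclin inhibitor Cdkn1a by 0.91 ± 0.064, with floxed levels lowest, at 0.10 and 0.10. Phlda3, an AKT repressor, fell by 0.74 ± 0.073. Cryab was not called without Trsp-RIPKO replicate 1 (adjusted p = 0.05).

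Genes of beta-cell identity leaned higher with Ins1-Cre, 21 of 44 rising and 8 falling, with a median of 0.24. Transcription factors were among the rises. Nkx6-1, which holds beta-cell identity, read 4.96 and 4.85 with Ins1-Cre, 3.98 and 3.90 with RIP-Cre and 4.56 and 4.47 without Cre. RIP-Cre was lowest and Ins1-Cre highest with no overlap, and the difference was 0.96 ± 0.079 (SE, adjusted p = 0.0017), 1.95-fold. Mafa, which drives insulin transcription in mature cells, rose by 0.53 ± 0.082 and Pdx1 by 0.45 ± 0.081; Nkx2-2 rose by 0.79 ± 0.094 on its brightest probe, but another probe of it differed by -0.59. Ucn3, urocortin 3, a marker of mature beta cells, read 4.12 and 3.85 with Ins1-Cre, 2.98 and 2.87 with RIP-Cre and 4.18 and 4.09 without Cre. It was low with RIP-Cre alone, by 1.06 ± 0.11 (SE, adjusted p = 0.003). Mafa and Pdx1 were not called without Trsp-RIPKO replicate 1 (adjusted p 0.051 to 0.06).

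The insulin genes were called higher with Ins1-Cre, but not under every scaling. Ins1 read 11.27 and 11.41 with Ins1-Cre, 10.55 and 10.70 with RIP-Cre and 10.24 and 10.48 without Cre and differed by 0.72 ± 0.12 (SE, adjusted p = 0.0085), and Ins2 differed by 0.74 ± 0.087 (SE, adjusted p = 0.0039). Under quantile normalization these differences became -0.16 and 0.029 and neither was called. That setting gives every array the same set of values. Genes among the brightest on all arrays then have little room to differ, so it cannot decide for the insulin genes. Before scaling, the processed intensity of Ins1 was 301243 and 301851 units with Ins1-Cre, 323717 and 337306 with RIP-Cre and 298221 and 310672 without Cre, so the scaled rise came with lower unscaled signal, at 0.912 of RIP-Cre, and that of Ins2 at 0.926. The 35 genes of highest level, 9 or more above the 75th percentile on average, had a median difference of 0.42, with 27 called higher and 1 lower; the part of signal compression in these values was not tested. Iapp, the amyloid polypeptide, rose by 0.88 ± 0.094 and Chga, chromogranin A, by 0.89 ± 0.078, at unscaled ratios of 1.02 and 1.04. Ins1 was not called without Trsp-RIPKO replicate 1 (adjusted p = 0.058).

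Receptors, channels and transporters in the identity list went both ways. Glp1r, the receptor of the incretin GLP-1, read -1.90 and -1.74 with Ins1-Cre, -0.61 and -0.25 with RIP-Cre and -0.32 and -0.34 without Cre and fell by 1.39 ± 0.14 (SE, adjusted p = 0.0025), with RIP-Cre level with the floxed arrays, and another Glp1r probe differed by -0.48. Trpm5, a calcium-activated cation channel, read 1.54 and 1.35 with Ins1-Cre, 2.21 and 2.11 with RIP-Cre and 3.24 and 3.04 without Cre. It declined from no Cre to RIP-Cre to Ins1-Cre with no overlap, the knockouts differing by -0.72 ± 0.11 (SE, adjusted p = 0.0074). Slc30a8, the zinc transporter of insulin granules, fell by 0.32 ± 0.072, and the lipid receptor Gpr119 fell by 0.66 ± 0.12, which normexp reversed to 0.14. The glucose transporter Slc2a2 read 3.87 and 3.76 with Ins1-Cre, 3.90 and 3.93 with RIP-Cre and 4.57 and 4.49 without Cre, lower in both knockouts than without Cre, and the difference between the knockouts of -0.094 (95% interval -0.29 to 0.10) was not called. Without Trsp-RIPKO replicate 1 the identity list had 8 higher and 1 lower, and without replicate 2 of that group 14 and 3. Gpr119 was not called without Trsp-RIPKO replicate 1 or 2 (adjusted p 0.066 to 0.076). Slc30a8 was not called with any 1 array left out but Trsp-Ins1KO replicate 1 (adjusted p 0.057 to 0.092). Trpm5 was not called without Trsp-RIPKO replicate 1 (adjusted p = 0.054).

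Hormones of the other islet cells went different ways, with 3 of 17 genes of those cells higher and 7 lower. Pyy, peptide YY, read 7.69 and 7.55 with Ins1-Cre, 6.55 and 6.54 with RIP-Cre and 7.66 and 7.62 without Cre, low with RIP-Cre alone, a difference of 1.08 ± 0.076 (SE, adjusted p = 0.0012). Ppy, pancreatic polypeptide, rose by 0.37 ± 0.088 and Ghrl, ghrelin, by 0.50 ± 0.12, both below the floxed arrays. Sst, somatostatin of delta cells, read 7.15 and 7.04 with Ins1-Cre, 7.56 and 7.65 with RIP-Cre and 7.89 and 7.86 without Cre and fell by 0.51 ± 0.076 (SE, adjusted p = 0.0069), and Hhex, the delta-cell factor, fell by 0.74 ± 0.065 and Rbp4 fell by 0.66 ± 0.062. Gcg, glucagon of alpha cells, read 8.83 and 8.77 with Ins1-Cre, 9.08 and 9.20 with RIP-Cre and 9.32 and 9.38 without Cre and fell by 0.34 ± 0.076 (SE, adjusted p = 0.021), and Slc38a5, an amino acid transporter of those cells, fell by 0.75 ± 0.075. Gcg was not called with any 1 array left out but Trsp-Ins1KO replicate 1 (adjusted p 0.053 to 0.091). Ghrl and Ppy were not called with any 1 array left out but Trsp-Ins1KO replicate 2 (adjusted p 0.057 to 0.13).

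**Figure D4:**
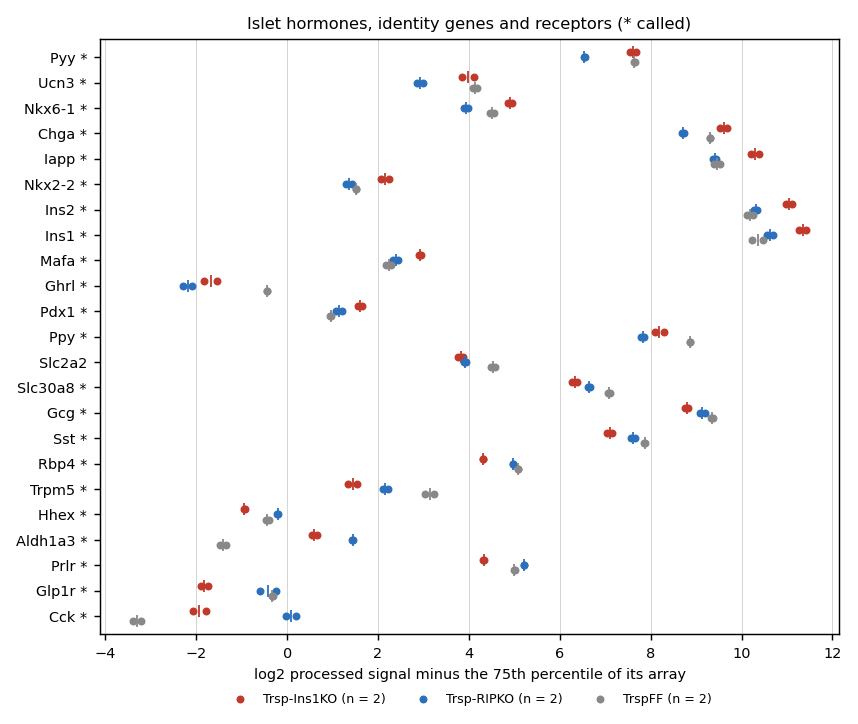
Level of islet hormones, identity genes and receptors on the 6 arrays, as log2 processed signal minus the 75th percentile of the array, with asterisks for genes called between the knockouts. Pyy, Ucn3 and Nkx6-1 are low with RIP-Cre, Trpm5, Sst and Gcg decline from no Cre to RIP-Cre to Ins1-Cre, and Aldh1a3 and Cck are highest with RIP-Cre.

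Genes that mature beta cells keep low, or that return on dedifferentiation, were lower with Ins1-Cre in 10 of 22 and higher in 4, with a median of -0.47, or -0.29 with unmeasured members at their bound. Over the 18 well above background on all 4 knockout arrays, 7 fell and 4 rose, with a median of -0.29. Cck, cholecystokinin, read -1.78 and -2.07 with Ins1-Cre, 0.19 and -0.036 with RIP-Cre and -3.22 and -3.38 without Cre, so that it was raised most with RIP-Cre, and it fell by 2.01 ± 0.14 (SE, adjusted p = 0.0012). Aldh1a3, an aldehyde dehydrogenase of failing beta cells, read 0.66 and 0.54 with Ins1-Cre, 1.45 and 1.44 with RIP-Cre and -1.49 and -1.34 without Cre. Both knockouts exceeded the floxed arrays, RIP-Cre the most, and the difference was -0.84 ± 0.085 (SE, adjusted p = 0.0026), 1.79-fold. Vim, vimentin, which mesenchymal cells also express, read -0.33 and -0.32 with Ins1-Cre, 0.82 and 0.90 with RIP-Cre and 0.23 and 0.25 without Cre and fell by 1.18 ± 0.067 (SE, adjusted p = 0.00079); Acot7, an acyl-CoA thioesterase, fell by 1.11 ± 0.078. Hsd11b1, the cortisone reductase, which fell by 1.99 ± 0.064, was well above background on 1 of the 2 Ins1-Cre arrays. Serpina7, thyroxine-binding globulin, and the pluripotency factor Nanog rose instead, by 1.00 ± 0.15 and 0.70 ± 0.10, and probes for Nanog can bind its pseudogene copies.

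In the list of exocytosis and ion channels 13 of 34 rose and 3 fell, 47.1% called against 39.9% of all genes. The potassium channels Kcnh2 and Kcnk16 rose by 1.00 ± 0.14 and 0.94 ± 0.10, and Cplx2, a complexin of granule fusion, by 0.66 ± 0.18. Cplx1, another complexin, was not well above background on the Ins1-Cre arrays and at least 2.22-fold lower there (adjusted p = 0.00063); under normexp its difference was -0.0032 and not called. The list had 7 higher and 1 lower without Trsp-RIPKO replicate 1, and 21 and 4 under normexp. Among receptors and signalling genes 6 of 31 rose and 8 fell, 45.2% called against 39.9% of all genes. Irs2, the insulin receptor substrate that supports beta-cell mass, read 3.88 and 3.86 with Ins1-Cre, 2.82 and 2.82 with RIP-Cre and 2.77 and 2.74 without Cre, raised with Ins1-Cre alone by 1.05 ± 0.062 (SE, adjusted p = 0.00085), and Avpr1b, a vasopressin receptor, fell by 0.99 ± 0.088. Of 7 EGF family genes tested, Areg, amphiregulin, read -0.35 and -0.33 with Ins1-Cre, -2.71 and -2.53 with RIP-Cre and -4.13 and -4.73 without Cre and rose by 2.28 ± 0.20 (SE, adjusted p = 0.002), Egf rose by 0.53 ± 0.072, and Epgn, epigen, was at least 2.2-fold lower with Ins1-Cre (adjusted p = 0.0018), which normexp did not call, at -0.079. Cplx2 was not called with any 1 array left out but Trsp-Ins1KO replicate 1 (adjusted p 0.052 to 0.15).

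Genes that answer to growth hormone, prolactin and STAT5 were lower with Ins1-Cre in 11 of 26 and higher in 5. The median was -0.25, or -0.077 over the 22 genes well above background on all 4 knockout arrays. Prlr, the prolactin receptor, read 4.32 and 4.32 with Ins1-Cre, 5.21 and 5.21 with RIP-Cre and 5.02 and 4.99 without Cre. RIP-Cre was highest with no overlap, and Prlr fell by 0.89 ± 0.063 (SE, adjusted p = 0.0012), 1.85-fold, with -0.49 on another probe. Tph1, the enzyme of serotonin synthesis that prolactin and growth hormone raise in islets, was well above background on both RIP-Cre arrays and on no other, at -5.55 and -5.37 with Ins1-Cre, -3.57 and -3.66 with RIP-Cre and -6.24 and -6.20 without Cre, too dim for a bound on its fold, and normexp reversed it to 0.29. Cish, a STAT5-induced inhibitor of cytokine signalling, read 0.50 and 0.56 with Ins1-Cre, -0.34 and -0.38 with RIP-Cre and 1.27 and 1.27 without Cre. It was lowest with RIP-Cre and highest without Cre, and rose by 0.90 ± 0.065 (SE, adjusted p = 0.0013) between the knockouts. Socs3, a related inhibitor, rose by 0.63 ± 0.091, Stat5a by 0.52 ± 0.10 and the leucine enzyme Ivd by 0.69 ± 0.085. Socs2, another such target, at 0.22 (95% interval 0.030 to 0.41), and the receptor Ghr, at -0.14 (95% interval -0.30 to 0.027), were not called. The falls included Fmo1, a flavin monooxygenase, at -1.80 and -1.72 with Ins1-Cre, 0.93 and 0.90 with RIP-Cre and 0.10 and 0.038 without Cre and a difference of -2.68 ± 0.070 (SE, adjusted p = 0.00016), Matn2, matrilin 2, at -1.44 ± 0.065, Spp1, osteopontin, at -1.33 ± 0.12, and Bcl6, a STAT5-repressed factor, at -0.82 ± 0.070. Without Trsp-RIPKO replicate 2 the list had 3 higher and 7 lower. Stat5a was not called without Trsp-RIPKO replicate 1 or 2 (adjusted p 0.05 to 0.076).

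Cell cycle and replication genes were lower with Ins1-Cre in 18 of 35 and higher in 2, with a median of -0.54, or -0.39 with unmeasured members at their bound. Mki67, which marks dividing cells, read -0.12 and -0.43 with Ins1-Cre, 1.34 and 1.37 with RIP-Cre and -0.40 and -0.32 without Cre. RIP-Cre alone was high, with a difference of -1.63 ± 0.12 (SE, adjusted p = 0.0013), 3.09-fold, and -1.77 on another probe. Cenpe, a kinetochore motor, fell by 1.27 ± 0.10, Ccna2, cyclin A2, fell by 1.42 ± 0.12, and Tk1, thymidine kinase, fell by 1.33 ± 0.11 with 1 of 2 Ins1-Cre arrays well above background. Ccnd1 and Ccnd3, cyclins of the entry into the cycle, rose by 0.86 ± 0.089 and 0.34 ± 0.076, and Ccnd2, the cyclin D of beta cells, at 0.18 (95% interval -0.14 to 0.50), was not called. Many members were dim: 12 of the 20 called kept their direction in every alternative but the renamed columns, 8 were called in the same direction under normexp, and 11 of the falls were among genes well above background on all 4 arrays. These counts were 2 higher and 7 lower without Trsp-RIPKO replicate 1, and 2 and 8 without replicate 2 of that group. Ccnd3 was not called with any 1 array left out but Trsp-RIPKO replicate 1 (adjusted p 0.052 to 0.09).

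Of 29 genes of hypoxia and glycolysis 11 rose and 1 fell, Ndrg1 rising by 0.70 ± 0.075, Aldoa by 0.67 ± 0.075, the glucose transporter Slc2a1 by 0.65 ± 0.086, and Ldha, lactate dehydrogenase, at -0.45 ± 0.10; without Trsp-RIPKO replicate 1 that was 5 and 2, and without replicate 2 of that group 7 and 0. The respiratory chain was even, 8 of 57 nuclear genes higher and 8 lower, a 28.1% share under the 39.9% of all genes, although normexp gave 5 and 32. Leaving out Trsp-RIPKO replicate 1 gave 2 and 2 there, Trsp-RIPKO replicate 2 gave 3 and 4, and either TrspFF array gave 5 and 5. Sterol synthesis had 2 higher and 5 lower of 24, the falls including Stard4, a sterol carrier, at -0.79 ± 0.069, Idi1 at -0.68 ± 0.067 and Hmgcs1, the synthase of the mevalonate pathway, at -0.66 ± 0.080, and 0 and 4 without Trsp-RIPKO replicate 2. The share called was 41.4% for hypoxia and glycolysis, 29.2% for sterol synthesis and 31.8% for fatty acid oxidation and ketogenesis, against 39.9% of all genes. In the list of fatty acid oxidation and ketogenesis Angptl4, an inhibitor of lipoprotein lipase, read -1.98 and -1.96 with Ins1-Cre, 0.18 and 0.30 with RIP-Cre and -0.35 and -0.61 without Cre and fell by 2.21 ± 0.11 (SE, adjusted p = 0.00059), and Pdk4, which holds back pyruvate oxidation, fell by 1.11 ± 0.10. In all, 2 of 22 genes of that list rose and 5 fell, and 0 and 2 without Trsp-RIPKO replicate 1, 0 and 3 without replicate 2 of that group and 1 and 3 without either TrspFF array. Ldha was not called without Trsp-Ins1KO replicate 1 or 2 or Trsp-RIPKO replicate 2 (adjusted p 0.05 to 0.08).

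The largest rise of any gene measured on all 4 knockout arrays was that of Slc38a1, a glutamine transporter. It read 2.62 and 2.59 with Ins1-Cre, -3.34 and -2.99 with RIP-Cre and -4.37 and -4.07 without Cre. Only the Ins1-Cre arrays were high, 54.5-fold above RIP-Cre, by 5.77 ± 0.15 (SE, adjusted p = 0.00016), and its other probes differed by 3.96 to 5.54. Rnf150, a ring finger protein, read 1.47 and 1.37 with Ins1-Cre, -1.31 and -1.13 with RIP-Cre and -1.59 and -1.43 without Cre and rose by 2.64 ± 0.10 (SE, adjusted p = 0.00035). Tti2, a partner of the chaperone of PI3K-like kinases, rose by 2.21 ± 0.11 and the phosphatase Dusp23 by 1.98 ± 0.12. Among the falls, Arhgap36, a regulator of protein kinase A and hedgehog signalling, read -2.18 and -2.55 with Ins1-Cre, 1.01 and 1.04 with RIP-Cre and -2.31 and -2.46 without Cre. It was high with RIP-Cre alone, with a difference of -3.39 ± 0.14 (SE, adjusted p = 0.0004), 10.5-fold. Fkbp11, a secretory prolyl isomerase, showed the same pattern at -3.05 and -2.54 with Ins1-Cre, -0.032 and -0.55 with RIP-Cre and -3.34 and -3.16 without Cre and -2.50 ± 0.24 (SE, adjusted p = 0.0024). Aqp1, the water channel, read -2.67 and -2.87 with Ins1-Cre, 0.51 and 0.48 with RIP-Cre and -0.093 and 0.048 without Cre and was low with Ins1-Cre alone, with a difference of -3.27 ± 0.10 (SE, adjusted p = 0.00018). Stmn2 and Chl1, both genes of neurites, were likewise low with Ins1-Cre alone, with differences of -2.59 ± 0.10 and -2.47 ± 0.11.

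Markers of tissues beside the islet also separated the arrays, and their part in the differences above was not tested. Hepatocyte genes rose in 17 of 21 and fell in 1. Of the 21, 10 were well above background on no RIP-Cre array and entered through Ins1-Cre, which largely set their direction. Over the 8 measured on all 4 knockout arrays 6 rose and 0 fell in the limma fit, with a median of 1.25. Alb, albumin, read -0.21 and -0.23 with Ins1-Cre, -5.34 and -4.46 with RIP-Cre and -4.95 and -4.24 without Cre, at least 16.2-fold higher with Ins1-Cre (adjusted p = 0.0015), and Ahsg, fetuin, was at least 16.7-fold higher (adjusted p = 0.0075). Mup19, a major urinary protein from outside that list, was at least 33.7-fold higher (adjusted p = 0.00015). The summed level of the list without Ttr, which islets also express, was 4.27 and 4.20 with Ins1-Cre, 2.85 and 2.82 with RIP-Cre and 2.73 and 2.74 without Cre. Ttr itself, at -0.053 (95% interval -0.22 to 0.11), was not called, and G6pc was the member that fell, at least 2.02-fold lower (adjusted p = 0.0016), a direction that normexp reversed at 0.020.

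Of the Paneth cell genes of the small intestine all 12 tested fell with Ins1-Cre. Of these, 10 were well above background on no Ins1-Cre array and entered through RIP-Cre, which largely set their direction. The 2 measured on all 4 knockout arrays fell too, with a median of -0.59. The summed level of all 12 was 0.71 and 0.91 with Ins1-Cre, 3.98 and 3.99 with RIP-Cre and 1.15 and 1.25 without Cre. Ang4, an angiogenin of Paneth cells, read -0.58 and -0.26 with Ins1-Cre, 0.17 and 0.12 with RIP-Cre and 0.37 and 0.42 without Cre and was higher without Cre than with RIP-Cre. Defa31 and Defa17, alpha-defensins, were at least 45.7-fold and at least 25.1-fold lower (adjusted p = 0.00062 and 0.00012), though probes of this family can bind several of its near-identical members. Of 28 intestinal genes 12 fell and 5 rose. The falls included Fabp2, the enterocyte fatty acid binding protein, at least 6.05-fold lower (adjusted p = 0.0056), and Muc13 and Tff3, at least 4.31-fold and at least 3.95-fold lower (adjusted p = 0.00079 and 0.0027). These named falls were all well above background on no Ins1-Cre array. Members that differed the other way included Cyp3a11, at 3.425, Apoc3, at 1.92, and Anpep, at 0.77. In this list 1 member was well above background on no RIP-Cre array. Of the 28, 13 were well above background on no Ins1-Cre array and entered through RIP-Cre; over the 12 measured on all 4 knockout arrays 4 rose and 2 fell, with a median of 0.031. Dmbt1, an epithelial mucin-like protein, read -2.15 and -1.98 with Ins1-Cre, 1.19 and 1.05 with RIP-Cre and -2.32 and -2.19 without Cre and differed by -3.19 ± 0.10 (SE, adjusted p = 0.00019). Of 31 acinar genes 13 fell and 2 rose, 48.4% called against 39.9% of all genes. Cela1, an elastase, read -1.10 and -1.07 with Ins1-Cre, 0.96 and 1.48 with RIP-Cre and -1.22 and -0.93 without Cre and fell by 2.30 ± 0.19 (SE, adjusted p = 0.0018), while Ctrb1, chymotrypsinogen, rose by 0.61 ± 0.073. The acinar count was 1 higher and 8 lower without Trsp-RIPKO replicate 1, and 1 and 7 without replicate 2 of that group. Ang4 was not called without Trsp-RIPKO replicate 1 or 2 (adjusted p 0.072 to 0.097).

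Fibroblast and stellate cell genes were lower with Ins1-Cre in 15 of 20 and higher in 2, with a median of -1.28, or -1.15 at the bounds; over the 13 measured on all 4 knockout arrays 9 fell and 2 rose. Dcn, decorin, read -0.62 and -0.30 with Ins1-Cre, 3.07 and 3.03 with RIP-Cre and 2.52 and 2.62 without Cre, low with Ins1-Cre alone, and fell by 3.51 ± 0.12 (SE, adjusted p = 0.00026), 11.4-fold. Col1a1 and Col3a1, the fibrillar collagens, differed by -1.91 ± 0.10 and -1.86 ± 0.075, and Lum, lumican, was at least 9.98-fold lower (adjusted p = 0.00012). Sparc rose by 0.54 ± 0.082, but another probe of it differed by -0.74 and the mean over probes at -0.10. The summed level without Sparc was 3.56 and 3.52 with Ins1-Cre, 4.91 in both RIP-Cre arrays and 4.36 and 4.39 without Cre. Genes of nerve and glia fell in 8 of 14 and rose in 2, Nefl, a neurofilament, being at least 4.87-fold lower (adjusted p = 0.0053). Over the 9 of them measured on all 4 knockout arrays 4 fell and 2 rose. Endothelial genes went up, 12 of 21 rising and 1 falling. Plvap, of fenestrated vessels, read 4.07 and 3.96 with Ins1-Cre, 2.21 and 2.13 with RIP-Cre and 2.24 and 2.21 without Cre and rose by 1.85 ± 0.077 (SE, adjusted p = 0.0004), and the factor Sox18 and the receptors Eng and Robo4 rose by 1.44 ± 0.11, 1.15 ± 0.14 and 1.05 ± 0.080. Vwf was the endothelial gene that fell, at -3.24 and -4.72 with Ins1-Cre, -0.14 and -0.046 with RIP-Cre and -0.78 and -1.01 without Cre, with 1 of 2 Ins1-Cre arrays well above background, and Pecam1, at -0.26 (95% interval -0.50 to -0.024), was not called. The summed endothelial level was 7.34 and 7.33 with Ins1-Cre, 6.78 in both RIP-Cre arrays and 6.59 and 6.58 without Cre.

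**Figure D5:**
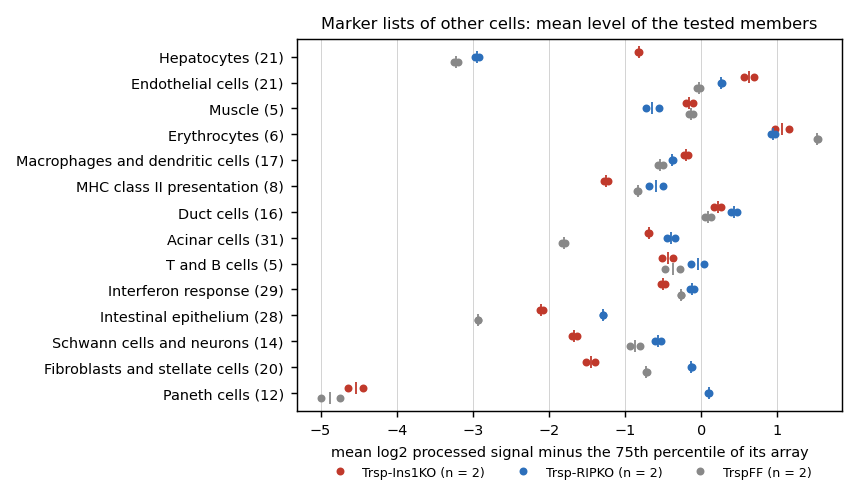
Mean level of the tested members of each marker list of other cells on the 6 arrays, as log2 processed signal minus the 75th percentile of the array, with the number of members in brackets. Hepatocyte and endothelial genes are highest with Ins1-Cre, fibroblast and neuronal genes lowest with Ins1-Cre, and the mean over Paneth genes is highest with RIP-Cre.

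Of 8 genes of MHC class II presentation 2 rose and 3 fell. Cd74, the invariant chain, rose by 1.01 ± 0.074 and H2-Eb1 by 1.02 ± 0.084, while H2-DMb1 was at least 4.19-fold lower (adjusted p = 0.00015) and H2-Aa, well above background on 1 of 2 Ins1-Cre arrays, fell by 2.46 ± 0.17, so genes of the pathway moved in opposite directions. Of the 5 calls, the 2 among genes measured on all 4 knockout arrays were rises, and a fit on probes that pass there alone gave 3 calls, all rises. Interferon response genes fell in 13 of 29 and rose in 2. H2-K1 and B2m, which form class I complexes, differed by -0.73 ± 0.067 and -0.72 ± 0.078, but another H2-K1 probe differed by only -0.18. The nucleotide-binding Gbp3 differed by -0.91 ± 0.10, and the antiviral Rsad2 rose by 1.11 ± 0.066. Over the 23 measured on all 4 knockout arrays 8 fell and 2 rose, and 9 of the 15 calls kept their direction in every alternative but the renamed columns.

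The sex-linked genes did not match the male labels of all arrays. Xist, which is made from the inactive X chromosome of females, read -5.79 and -5.60 with Ins1-Cre, 1.05 and 1.34 with RIP-Cre and -0.56 and -0.32 without Cre, and was well above background on the RIP-Cre and floxed arrays and not on the Ins1-Cre arrays, where it was at least 25.7-fold lower (adjusted p = 0.00012). The Y-linked Ddx3y read 0.75 and 0.51 with Ins1-Cre, -0.53 and -0.44 with RIP-Cre and 0.96 and 0.78 without Cre and rose by 1.12 ± 0.11 (SE, adjusted p = 0.0027), Kdm5d rose by 1.30 ± 0.23, Uty by 0.87 ± 0.15 and Eif2s3y by 0.72 ± 0.079, each lowest with RIP-Cre. Xist and Y-linked genes were thus both present on the RIP-Cre and floxed arrays, and the part of sex in the differences was not tested. Without Xist, the Y-linked genes and the lists of other cells, 7284 genes were called. Kdm5d and Uty were not called without Trsp-RIPKO replicate 1 (adjusted p 0.06 to 0.07).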

How the data were processed

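The 6 Agilent 1-colour arrays (design 026655) of islet total RNA, labelled with Cy3, were used as deposited by the authors: per the file headers, Feature Extraction 10.7.3.1 gave each spot's processed intensity, background-subtracted and not scaled between arrays, with median and background intensities and 0 or 1 flags. The authors also deposited a log2 table, centred per probe, used as an alternative; how it was scaled is not stated in the files or labels. Columns of TrspFF and Trsp-Ins1KO in it hold each other's scanner values. Under its own names, the column medians were -0.080 and -0.045 (Trsp-Ins1KO), 0.011 and -0.029 (Trsp-RIPKO), and 0.087 and 0.14 (TrspFF).

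Spots of 1 probe were averaged, log2 processed intensity was set against each array's 75th percentile, and 22693 of 39426 probes entered, being well above background on both arrays of Trsp-Ins1KO or of Trsp-RIPKO; 26053 probes (66.1%) had 1 symbol. The brightest probe stood for a gene. limma 3.58.1 (R 4.3.3; lmFit, eBayes, 2 arrays per group, all 6 arrays sharing the spread) gave two-sided tests with Benjamini-Hochberg adjustment over 18626 genes. A gene dim on every array of 1 group has a bound: the bright mean against the lower limit of measured signal, array by array. The adjusted p of such a gene is that of the limma difference with the dim signals as read, not of the bound. On simulated data, 100 of 18626 genes were changed by 0.5 (log2) and 100 by 1.0. Of these 21% and 65% were recovered, with 7 false calls. Far fewer genes changed there than the 39.9% called here, which makes the adjusted cut-off stricter. These shares therefore do not give the power or the false calls of the real fit. The number of arrays limits the precision. Intervals are at 95%, unadjusted. The members and the gene lists were chosen with earlier results of these data known; no list has a test. Named were the 12 highest and lowest called genes measured on all 4 arrays, the 12 highest and lowest bounds, up to 6 called and 6 other members of each list, sex-linked genes, and 10 genes set by name; further members of the stress response, beta-cell identity and growth hormone lists were named after their values were seen. Some genes that this rule names are not reported here. Promoter sequences came from RefSeq.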

Additional observations from a re-analysis of the deposited data

How the results depend on the processing

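The 7431 calls over all genes stayed within 1.5 times under 16 of 20 other fits. They moved to 11643 under normexp, to 11645 with no filter on dim probes, and with 1 array left out ranged from 3902 (without Trsp-RIPKO replicate 1) to 6703, the single array left in a group being taken to vary like the others. The 419 calls among listed genes ranged from 257 (without Trsp-RIPKO replicate 1) to 387 with 1 array left out, and from 345 to 555 otherwise. The share of calls that were lower was 50.4%, and 29.3% with median scaling and 32.3% with normexp. With the replicate number as a block 7211 genes were called; same-numbered arrays deviated together only weakly (correlations of 0.094, 0.081 and 0.061 over genes), so the numbers were not taken to pair the arrays. A filter on all 4 knockout arrays, chosen after seeing the data, gave 7069. Leaving out either TrspFF array gave the same result as a fit on the 4 knockout arrays alone. The differences between the knockouts then stayed as they were, and only the estimate of the spread changed. The fits without a TrspFF array are therefore not separate checks of a call. Of 170 named genes called, 32 lost the call without at least 1 array. Dim probes limit the falls: 1544 genes were well above background on no Ins1-Cre array.

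Direction reversed under normexp for G6pc at 0.020, Gpr119 at 0.14 and Tph1 at 0.29, under quantile normalization for Ins1 at -0.16, and with the mean over probes for Sparc at -0.10. The cause was not tested. The constant that normexp adds lifts dim signals most on the Ins1-Cre arrays, so it cannot decide the direction of such dim genes. Quantile normalization leaves the brightest genes little room to differ. The authors' table gave 7433 calls with columns matched to the scanner files and 7049 under its own column names, where by construction the columns named Trsp-Ins1KO hold the TrspFF arrays. Under those names 78 named differences changed sign. Turned negative were Ahsg -0.41, Areg -1.81, Asns -0.030, Atf5 -0.24, Bbc3 -0.21, Cat -0.85, Ccnd3 -0.082, Cdkn1a -0.46, Cebpb -0.42, Chac1 -0.63, Cplx2 -0.67 and Ctrb1 -1.11. Negative too were Dusp1 -0.22, Dusp23 -0.31, Egf -0.54, Egr1 -0.22, Eng -0.25, Ern1 -0.26, Fgf21 -1.38, Gdf15 -0.70, Gpx2 -0.90, Gsr -0.13, Gstm1 -0.43 and Gstm2 -0.87. So were Gstm3 -0.98, Gstp1 -0.67, Hmox1 -1.69, Ier3 -0.10, Ins1 -0.27, Ins2 -0.12, Irs2 -0.064, Kcnk16 -0.23, Mafa -0.16, Nanog -0.49, Nr4a1 -0.44 and Nupr1 -0.46. The same held for Pdx1 -0.19, Phgdh -0.16, Plk2 -0.22, Psat1 -0.72, Pstk -0.0025, Rnf150 -0.29, Robo4 -0.34, Rsad2 -0.27, Sars -0.022, Serpina7 -0.79, Sesn2 -0.73 and Slc38a1 -1.05. Also negative were Slc7a3 -1.41, Slc7a5 -0.42, Sox18 -0.10, Stat5a -0.061, Syvn1 -0.14, Trib3 -0.84, Txnrd2 -0.020 and Vldlr -0.26. Turned positive were Ang4 0.25, Avpr1b 0.17, Gcg 0.21, Ghr 0.32, Glp1r 0.10, Gpr119 0.43, Gpx1 0.74 and Gpx4 0.79. Positive too were Hmgcs1 0.078, Idi1 0.28, Mt1 1.00, Pdk4 0.12, Prdx4 0.017, Rbp4 0.11, Selenoh 0.83 and Selenop 0.34. The positive values also took in Selenot 1.04, Slc2a2 0.61, Slc30a8 0.43, Slc38a2 0.037, Sst 0.27 and Trpm5 0.98.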

Other observations

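The remaining gene lists held from 1 to 17 tested genes each. Fatty acid synthesis genes rose in 6 of 16 and fell in 1, with Fasn, fatty acid synthase, at 0.50 (95% interval 0.074 to 0.93), not called; without Trsp-RIPKO replicate 1 that was 1 and 1, and without replicate 2 of that group 3 and 1. Metallothioneins and zinc transporters had 3 higher and 1 lower of 13, macrophage and dendritic cell genes 6 and 1 of 17, duct genes 3 and 3 of 16, erythrocyte genes 3 and 1 of 6, adipocyte genes 1 and 1 of 3, muscle genes 2 and 0 of 5 (1 lower member had an unadjusted p under 0.05), T and B cell genes 0 and 1 of 5, and the only tested Reg gene was not called in the limma fit. Against 39.9% of all genes, 30.8% of the metallothionein and zinc list, 41.2% of the macrophage list and 37.5% of the duct list were called. With 1 array left out, metallothioneins and zinc transporters had 1 higher and 0 lower (without either Trsp-RIPKO array), macrophage genes 4 and 0 (either TrspFF array) or 3 and 0 (Trsp-RIPKO replicate 2), muscle genes 1 and 0 (Trsp-RIPKO replicate 1), and T and B cell genes 0 and 0 (Trsp-RIPKO replicate 1 or Trsp-Ins1KO replicate 1) or 1 and 0 (Trsp-Ins1KO replicate 2). Erythrocyte genes had 0 and 1 without Trsp-RIPKO replicate 1 or either Trsp-Ins1KO array, and 1 and 1 without Trsp-RIPKO replicate 2. Among the duct genes Cftr, the chloride channel, read -2.66 and -2.71 with Ins1-Cre, -0.62 and -0.76 with RIP-Cre and -2.36 and -2.14 without Cre, high with RIP-Cre alone, a difference of -2.0 (limma, adjusted p = 0.00063). In the muscle list Cox6a2, a subunit of cytochrome oxidase of heart and muscle, read 4.70 and 4.64 with Ins1-Cre, 2.92 and 2.89 with RIP-Cre and 5.32 and 5.30 without Cre. It was lowest with RIP-Cre, and the difference was 1.77 ± 0.065 (SE, adjusted p = 0.0003).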
